A study of Mus musculus with 6 samples.

Results

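The genes described here are those of the Wnt ligands, their Frizzled receptors and the secreted proteins that modulate them, measured in mouse cardiac mesenchymal cells. They were chosen by symbol alone from the protein-coding genes: Wnt, Frizzled (Fzd), secreted Frizzled-related protein (Sfrp, with Frzb), Dickkopf (Dkk) and R-spondin (Rspo) genes and Wif1. The rule found 43 genes of the 53460 in the table: 19 Wnt ligands, 10 Frizzleds, 5 genes of the Sfrp family, 4 Dickkopfs, 4 R-spondins and 1 Wnt inhibitory factor. These are cultured stromal cells of the heart, of which the fraction that attaches late to the dish was used. There were 3 libraries of cells from hearts in which a coronary artery had been occluded for 60 min and then reperfused for 28 days (infarct libraries), and 3 of cells from hearts of sham-operated mice, which had the chest opened without an infarct. Day 28 is given for the samples of both groups, and the titles of all samples carry the mark P4. The donors in both groups were C57BL6/J mice that the labels call male. Nothing in the labels ties the libraries to separate mice or cultures, so the p-values reflect the spread among these libraries, and that spread may be technical. Values are FPKM, which scales fragments by the length of the transcript and the size of the library, so levels can be compared between genes.

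Wnt proteins are secreted lipid-modified signals that bind Frizzled receptors together with a co-receptor. In the canonical branch, binding of Frizzled and LRP5 or LRP6 stabilises beta-catenin, which then acts with TCF/LEF factors on target genes, while other branches act through cell polarity and calcium. Sfrp proteins and WIF1 bind Wnt in the extracellular space, Dickkopf proteins act on LRP5 and LRP6, and R-spondins increase the amount of receptor at the cell surface through LGR receptors. In the heart the pathway is known for its roles in valve and myocardial development and in the fibroblast response to injury.

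The lowest FPKM values lie on steps of 1 fragment, which put the depth at 20.3 to 28.1 M fragments per library. At that depth 1 FPKM on a transcript of 2 kb stands for 40.6 to 56.2 fragments, counting error only. Fibroblast markers were abundant, with the 11 markers summing to 4346 to 5659 FPKM in infarct and 4381 to 5687 FPKM in sham libraries, led by Vim, Col3a1 and Col1a1. The 14 endothelial markers summed to 11.5 to 28.9 FPKM in infarct libraries and 96.9 to 417 FPKM in sham libraries. Emcn, Cdh5 and Egfl7 had the highest means over all libraries. In infarct libraries 2 and 3 the highest was Flt1, at 7.47 and 8.76 FPKM. The macrophage and leukocyte list summed to 15.6 to 30.6 FPKM in infarct and 10.6 to 29.6 in sham libraries, mostly Lyz2, with Ptprc, Adgre1, Itgam and C1qa under 0.1 FPKM in every library. Cardiomyocyte markers (88.8 to 91.5 FPKM in infarct, 87.5 to 119.9 in sham libraries, mostly Atp2a2 and Tnnt2, with Myh6 and Myh7 under 0.1) overlapped between the groups. So did pericyte and smooth muscle markers (617 to 957 in infarct, 594 to 877 in sham), epicardial markers (28.1 to 56.9 in infarct, 30.1 to 43.1 in sham) and Schwann cell markers (3.11 to 4.93 in infarct, 4.06 to 7.44 in sham). The 10 proliferation genes, led by Cdk1, Pcna and Top2a, summed to 425, 189 and 230 FPKM in infarct libraries 1 to 3, against 202, 362 and 157 FPKM in sham libraries 1 to 3. The sex-linked genes went against the labels: the female-specific transcript Xist was at 63.1 to 89.9 FPKM in infarct and 102 to 111 FPKM in sham libraries. The 4 Y-linked genes Ddx3y, Eif2s3y, Kdm5d and Uty summed to 25.6, 2.36 and 6.21 FPKM in infarct libraries 1 to 3 and 0.307 to 0.410 in sham libraries. Neither Xist nor the Y-linked sum overlapped between the groups, so an effect of infarct cannot be told apart from one of this difference. Its part in the results below was not tested. As the mismatch with the labels touches all 6 libraries, no result can be given without it.

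Most Frizzleds and Sfrp family genes, but few Wnt ligands, were at appreciable levels in these cells. Of the 43 genes, 18 reached 1 FPKM in at least 3 of the 6 libraries: 8 Frizzleds, 4 Sfrp family genes, 3 Wnt ligands, 2 Dickkopfs and 1 R-spondin. Another 5 reached 1 FPKM in 1 or 2 libraries and 20 in none. The secreted antagonist genes Sfrp1 and Frzb together held 49.6% to 61.8% of the summed FPKM of the 43 genes in infarct libraries and 44.8% to 63.6% in sham libraries. In every library the Sfrp family (137 to 236 FPKM in infarct, 161 to 242 in sham) summed to more than the Frizzleds (80.9 to 91.8 in infarct, 86.6 to 95.6 in sham), and the Frizzleds to more than the Wnt ligands (12.9 to 17.9 in infarct, 13.4 to 20.2 in sham).

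**Figure D1:**
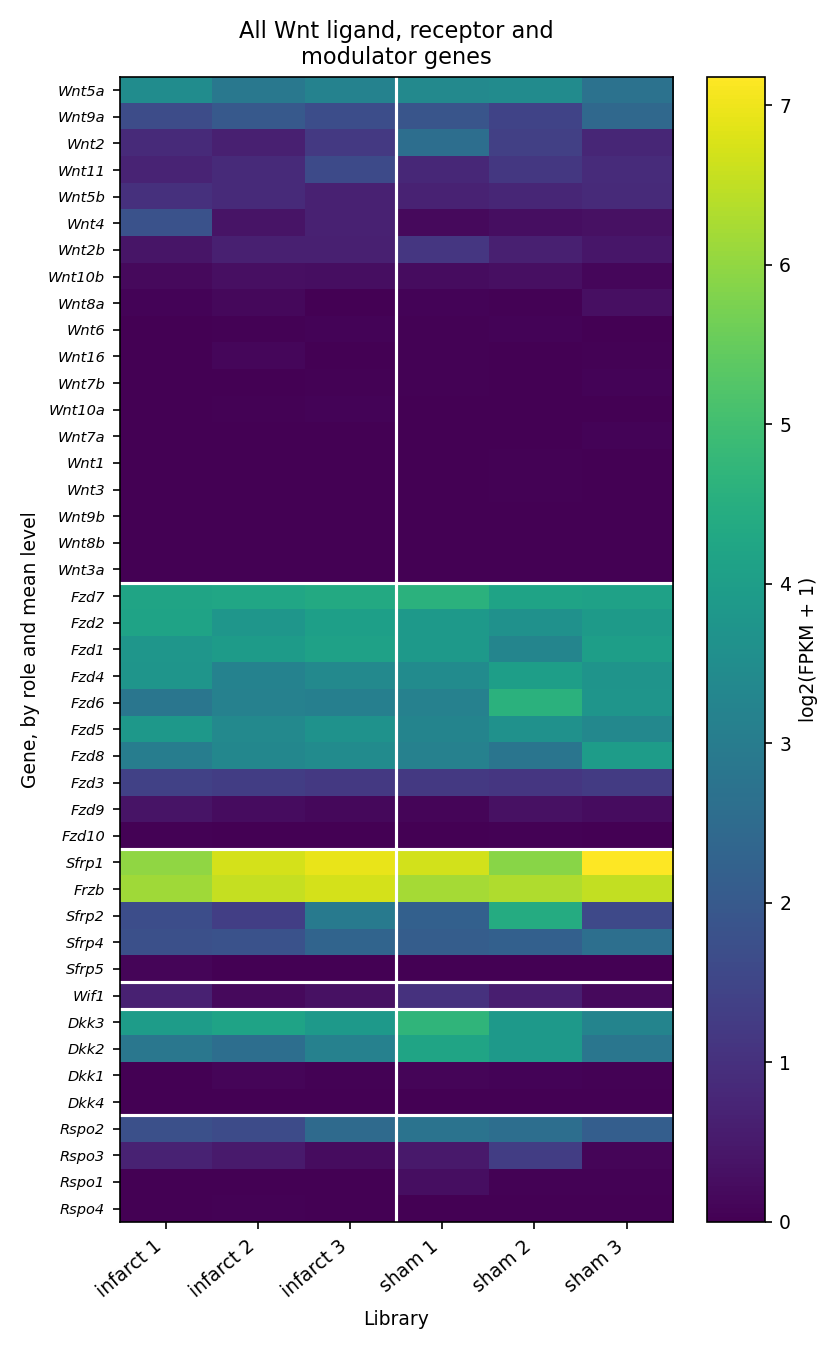
All 43 genes as log2(FPKM + 1) (colour), genes in rows by role and mean level and libraries in columns, infarct left of sham. Sfrp1 and Frzb are the brightest rows, 8 of the 10 Frizzleds are above 1 FPKM in every library, and most Wnt ligands are near 0.

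**Figure D2:**
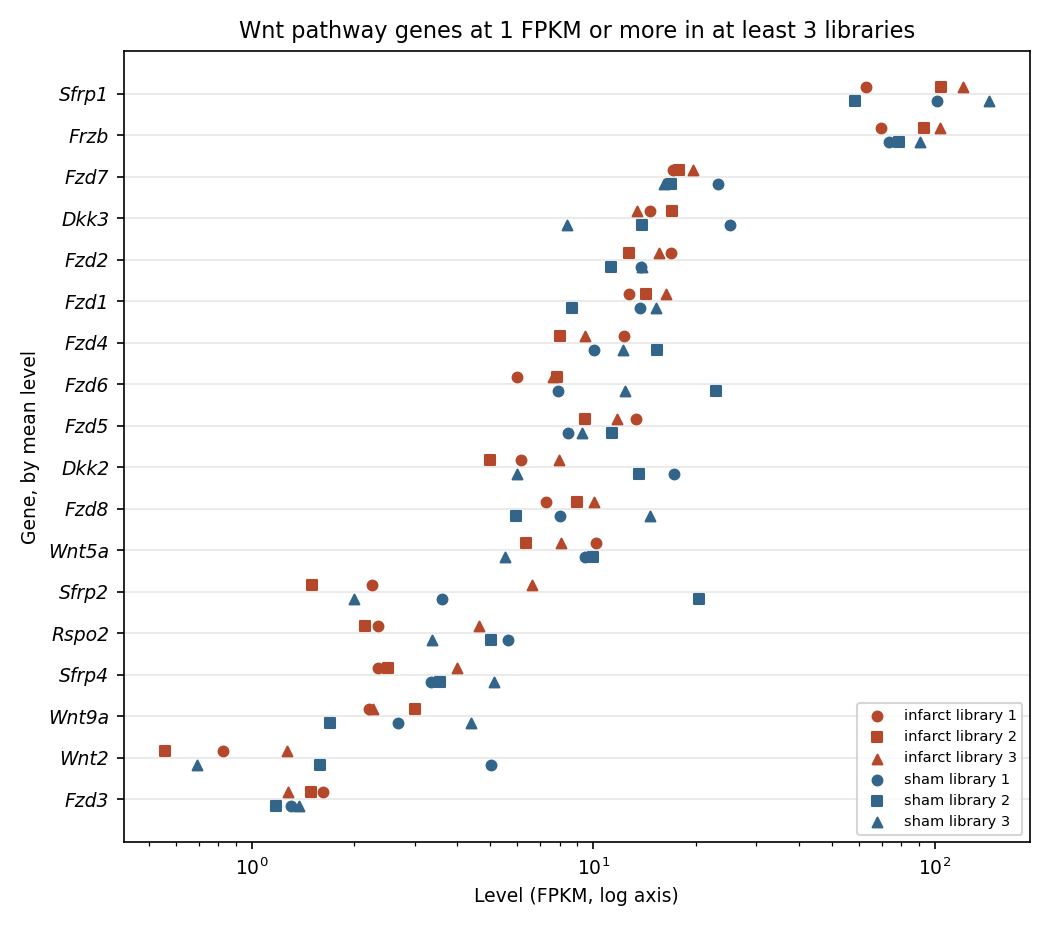
Level in each library (FPKM, log axis) of the 18 tested genes, infarct above sham for each gene, 1 point per library. The points of the groups interleave for 17 of the 18 genes, and those of Fzd6 do not.

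Among the ligands, Wnt5a, which signals mainly through the non-canonical branches, was the most abundant (GRCm38, chr14:28504750-28527448, plus strand). It stood at 10.2, 6.38 and 8.05 FPKM in infarct libraries 1 to 3, against 9.47, 10.02 and 5.52 FPKM in sham libraries 1 to 3. The groups overlapped almost completely, and Wnt5a alone held 49.4% to 57.1% of the ligand FPKM in infarct and 41.2% to 61.2% in sham libraries. Its locus overlaps the gene model Gm2670, so some of its fragments are uncertain. Wnt9a, known from joint and limb development, was next at 2.20, 3.00 and 2.26 FPKM in infarct libraries, against 2.68, 1.70 and 4.40 FPKM in sham libraries. Both the lowest and the highest Wnt9a value were in sham libraries.

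Wnt2 (chr6:17988940-18030585, minus strand), a canonical ligand of lung and heart mesoderm, was at 0.824, 0.558 and 1.27 FPKM in infarct libraries and at 5.02, 1.58 and 0.693 FPKM in sham libraries. Sham library 1 was far above the other 5, and sham library 3 lay within the infarct values. Its paralog Wnt2b was also highest in sham library 1, at 1.21 FPKM, and was at 0.324 to 0.546 FPKM in infarct and 0.537 and 0.357 FPKM in sham libraries 2 and 3. Wnt4 (chr4:137277489-137299726, plus strand), a ligand required in kidney and gonad development, was at 2.51, 0.306 and 0.566 FPKM in infarct libraries, against 0.143, 0.194 and 0.262 FPKM in sham libraries. Its groups did not overlap, but infarct library 1 held most of the difference, and the values stand for an estimated 244.9, 26.0 and 55.1 fragments in infarct and 13.5, 19.4 and 30.8 fragments in sham libraries. Infarct library 1 also had the highest sum of proliferation genes and of Y-linked genes, and their part in this value was not tested.

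Wnt11, a non-canonical ligand of heart development, reached 2.04 FPKM in infarct library 3 and was at 0.644 to 1.26 FPKM in the other 5 libraries. Wnt5b, a close relative of Wnt5a, was at 0.594 to 0.975 FPKM in infarct and 0.597 to 0.808 FPKM in sham libraries, so its groups overlapped. The Wnt5b locus overlaps the gene Fbxl14, so some of its fragments are uncertain. The remaining 12 ligands stayed at or under 0.233 FPKM in every library. They include the canonical ligands Wnt1, Wnt3 and Wnt3a, the last seen in 1 library at 0.0160 FPKM. Wnt1 and Wnt9b were listed at 0 in the infarct libraries and above 0 in each sham library, but there they stand for an estimated 0.957 to 2.03 fragments, so no difference was detectable at this depth.

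Frizzled genes were expressed broadly. Fzd7, a receptor of canonical and non-canonical ligands, had the highest mean of the Frizzleds over all libraries. It was at 17.1, 17.9 and 19.6 FPKM in infarct and 23.2, 16.9 and 16.1 FPKM in sham libraries. The closely related Fzd2 was at 16.9, 12.8 and 15.6 FPKM in infarct and 13.8, 11.3 and 13.9 FPKM in sham libraries, and Fzd1, of the same subfamily, at 12.7, 14.3 and 16.3 FPKM in infarct and 13.7, 8.69 and 15.3 FPKM in sham libraries. The groups overlapped for each of these 3 receptors. Fzd7 exceeded Fzd2 in each of the 6 libraries, though their ranges over all libraries met, while Fzd2 and Fzd1 changed order between libraries. Sham library 2 held the lowest Fzd1 and Fzd2 values, and there Fzd6, at 22.9 FPKM, exceeded Fzd7.

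Fzd5 was at 13.3, 9.45 and 11.7 FPKM in infarct and 8.46, 11.3 and 9.28 FPKM in sham libraries, and Fzd8, its closest relative, at 7.27, 8.97 and 10.04 FPKM in infarct and 7.97, 5.97 and 14.7 FPKM in sham libraries. Both overlapped between groups, and for Fzd8 the sham libraries spread more widely than the infarct libraries. Fzd3, a receptor of the planar polarity branch, was low, at 1.62, 1.49 and 1.28 FPKM in infarct and 1.31, 1.18 and 1.38 FPKM in sham libraries, the tightest values among the receptors. Fzd9 and Fzd10 did not exceed 0.301 and 0.0256 FPKM.

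Fzd6 was the 1 tested gene whose groups did not overlap. Fzd6 (chr15:39006034-39038188, plus strand), which acts mainly in planar cell polarity, was at 5.996, 7.83 and 7.61 FPKM in infarct libraries, against 7.89, 22.9 and 12.4 FPKM in sham libraries. The highest infarct value, 7.83, lay just under the lowest sham value, 7.89, and sham library 2 was far above the rest. The means were 7.14 ± 1.0003 FPKM in infarct and 14.4 ± 7.72 FPKM in sham libraries (SD, n = 3 each), a ratio of 0.496. On the log2(FPKM + 1) scale the difference, infarct minus sham, was -0.81 (SE 0.337, 95% interval -1.61 to -0.01). It did not pass limma over all genes (adjusted p = 1.00), and without sham library 2 it was -0.43. The Fzd6 locus overlaps the gene model Gm26704, so some fragments are uncertain.

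Fzd4, the receptor of norrin in blood vessels, was at 12.3, 8.01 and 9.45 FPKM in infarct libraries, against 10.1, 15.3 and 12.3 FPKM in sham libraries. The groups overlapped, through infarct library 1. The difference was -0.31 (95% interval -0.77 to 0.15, adjusted p = 1.00 by limma), and with single libraries left out it ran from -0.17 without sham library 2 to -0.46 without infarct library 1. Within each group, the order of the libraries by Fzd4 was the same as by the 14 endothelial markers, which summed to 28.9, 11.5 and 14.5 FPKM in infarct libraries 1 to 3 and 96.9, 417 and 269 FPKM in sham libraries 1 to 3. For Fzd6 that held in the sham libraries, where library 2 was highest and library 1 lowest in both, while in the infarct group library 1 was lowest in Fzd6 and highest in the markers. The part of endothelial RNA in these values was not tested, and in bulk samples fewer cells of a type and less RNA per cell cannot be told apart.

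**Figure D3:**
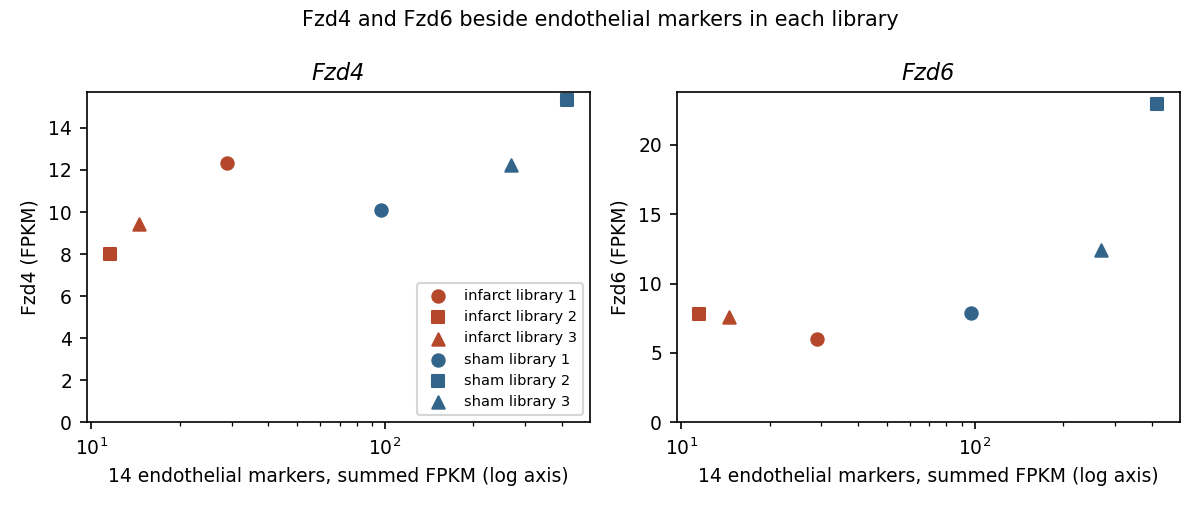
Fzd4 and Fzd6 (FPKM, vertical) against the summed FPKM of 14 endothelial markers (horizontal, log axis), 1 point per library. Infarct libraries lie at 11.5 to 28.9 FPKM of markers and sham libraries at 96.9 to 417, and sham library 2 is highest in both receptors.

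Sfrp1 and Frzb, of the secreted Frizzled-related family, were the most abundant of the 43 genes, while Sfrp2, Sfrp4 and Sfrp5 were lower than several Frizzleds. Sfrp1 (chr8:23411502-23449632, plus strand), a Wnt antagonist with a Frizzled-like domain, was at 62.8, 105 and 121 FPKM in infarct libraries, against 102, 58.5 and 144 FPKM in sham libraries. The groups overlapped, and the low libraries, infarct 1 and sham 2, were those with the highest proliferation sums, given above. The part of proliferation in this was not tested. Frzb (chr2:80411970-80447625, minus strand), also called Sfrp3 and known as an antagonist from cartilage, was at 69.6, 93.2 and 104 FPKM in infarct and 73.4, 78.6 and 90.8 FPKM in sham libraries. Frzb was the steadier of the pair, and in infarct library 1 and sham library 2 it exceeded Sfrp1, by 1.11 and 1.34 times.

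Sfrp2 (chr3:83766321-83774316, plus strand), known from fibroblasts of the infarcted heart in mouse, was at 2.26, 1.51 and 6.61 FPKM in infarct libraries, against 3.61, 20.4 and 2.00 FPKM in sham libraries. Sham library 2 stood apart, and the other 5 libraries overlapped. The difference was -0.75 (95% interval -2.55 to 1.05, adjusted p = 1.00 by limma), and without sham library 2 it was 0.092. Sfrp2 overlaps the gene model Gm26771, so some fragments are uncertain. Sfrp4, a further antagonist of the family, was at 2.34, 2.51 and 4.005 FPKM in infarct and 3.34, 3.56 and 5.11 FPKM in sham libraries. Infarct library 3 fell within the sham values. Sfrp5 was listed above 0 in infarct library 1 alone, at 0.0699 FPKM. Wif1, which encodes a secreted Wnt-binding inhibitor, was at 0.589, 0.144 and 0.256 FPKM in infarct and 1.04, 0.521 and 0.130 FPKM in sham libraries, with both extremes in the sham group.

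Both expressed Dickkopf genes were highest in sham library 1. Dkk2 (chr3:132085292-132180304, plus strand), a modulator of LRP6 that can inhibit or activate it depending on context, was at 6.14, 4.98 and 7.96 FPKM in infarct libraries, against 17.3, 13.6 and 5.99 FPKM in sham libraries. Sham libraries 1 and 2 were above the infarct libraries, and sham library 3 was within them. The means were 6.36 ± 1.501 FPKM in infarct and 12.3 ± 5.75 FPKM in sham libraries (SD, n = 3 each), and the difference was -0.76 (95% interval -1.60 to 0.08, adjusted p = 1.00 by limma). With single libraries left out it ran from -0.48 without sham library 1 to -1.17 without sham library 3, with adjusted p of 0.800 to 1.00 by limma. Dkk3, a divergent member that does not act as a classical LRP6 inhibitor, was at 14.7, 17.0 and 13.5 FPKM in infarct and 25.1, 13.9 and 8.38 FPKM in sham libraries. The infarct values lay inside the sham range. Dkk1, the best known inhibitor of the family, did not exceed 0.0740 FPKM, and Dkk4 was listed at 0 in all 6 libraries.

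Among the R-spondins, which strengthen Wnt signals, Rspo2 was at 2.35, 2.14 and 4.62 FPKM in infarct libraries, against 5.65, 5.01 and 3.38 FPKM in sham libraries. Infarct library 3 exceeded sham library 3, so the groups overlapped. The difference was -0.52 (95% interval -1.15 to 0.11, adjusted p = 1.00 by limma), and -0.79 without infarct library 3. Rspo3, known for roles in vessels, was at 0.613, 0.426 and 0.183 FPKM in infarct and 0.417, 1.47 and 0.0797 FPKM in sham libraries, highest in sham library 2. Rspo1 was listed at 0 in infarct libraries and at 0.205, 0.0241 and 0.0204 FPKM in sham libraries, an estimated 8.44, 1.05 and 1.05 fragments, and Rspo4 did not exceed 0.0211 FPKM.

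Set side by side, infarct and sham libraries, which also differed in the sex-linked genes, gave no difference that passed limma in the 18 tested genes. The test ran on log2(FPKM + 1) over the 12720 genes that reached 1 FPKM in 3 or more libraries. It called 0 of the 18, where 0.0236% of all genes tested were called, and 1 of the 18, Fzd6, had an unadjusted p under 0.05 (0.0484), where 3.58% of all genes had. By the authors' own test, given below, 5 genes were called. The groups did not overlap for 1 of the 18, against 7.81% of all genes tested, a like share. Of the 25 untested genes 24 were above 0 in some library, and for 4 of these 24 the groups did not overlap, against 7.2% of all such untested genes: Wnt4, higher in infarct libraries, and Wnt1, Wnt9b and Rspo1, at 0 there.

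Of the 18, 12 (66.7%) had a negative and 6 a positive difference, where 44.7% of all tested genes had a negative one. This count was not tested. The median of the 18 was -0.04, where the median of all tested genes was 0.02. The intervals set what these libraries could show. The distance from the estimate to either bound ran from 0.31 for Fzd3 to 1.80 for Sfrp2 with a median of 0.59 on the log2 scale, and 17 of the 18 included 0. For Wnt5a (-0.58 to 0.58), Frzb (-0.27 to 0.51), Fzd7 (-0.38 to 0.33) and Sfrp1 (-0.90 to 0.83) both directions remained possible. The sign of Dkk3, Frzb, Fzd1, Fzd7, Fzd8, Sfrp1, Sfrp2, Wnt5a and Wnt9a turned when single libraries were left out.

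**Figure D4:**
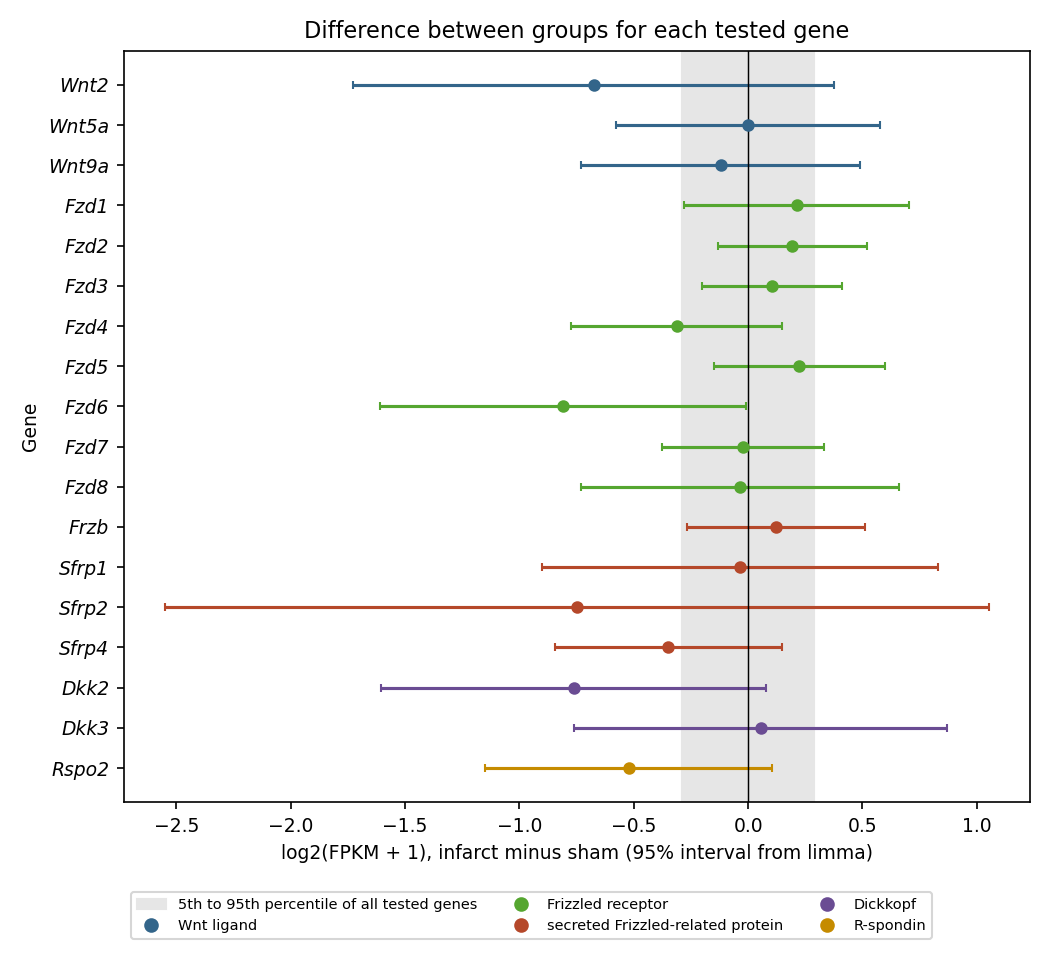
Difference between the groups in log2(FPKM + 1), infarct minus sham, with its 95% interval from limma for each of the 18 tested genes, coloured by role. The grey band holds the central part of all 12720 tested genes (-0.29 to 0.29), and 17 of the 18 intervals include 0.

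In sums over a role, R-spondin genes had 3.45 ± 1.19 FPKM in infarct and 5.43 ± 1.67 FPKM in sham libraries (SD, n = 3 each), a ratio of 0.636. Their groups overlapped, with infarct library 3 at 4.81 FPKM and sham library 3 at 3.50 FPKM. Dickkopf genes had 21.5 ± 0.599 FPKM in infarct and 28.1 ± 14.05 FPKM in sham libraries. That sham spread came from sham library 1, at 42.5 FPKM, and sham library 3, at 14.4 FPKM, on either side of the infarct libraries. Sums for Wnt ligands (15.5 ± 2.51 FPKM in infarct, 16.7 ± 3.41 in sham) and the Sfrp family (192 ± 50.1 in infarct, 195 ± 41.9 in sham) differed by less than the spread between libraries. The Frizzled sum was 86.7 ± 5.52 in infarct and 92.0 ± 4.80 in sham libraries, with groups that overlapped.

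The authors' deposited table, which uses its own test on the same libraries, gave another count. It tested 24 of the 43 genes and called 5, where 1.66% of the 14922 genes it tested were called. In the authors' deposited table Dkk2 (q = 0.00178), Fzd6 (q = 0.0437), Sfrp2 (q = 0.00178) and Wnt2 (q = 0.0132) are called lower in infarct, where 1.19% of its genes are, and Wnt4 (q = 0.00178) is called higher, where 0.469% are. The p of Dkk2, Sfrp2 and Wnt4 in the authors' deposited table is 5e-05, the smallest that it lists. For 3 of the 5, Dkk2, Sfrp2 and Wnt2, the groups overlap in the library values above. Those values were most extreme in sham library 1 for Dkk2 and Wnt2, in sham library 2 for Fzd6 and Sfrp2 and in infarct library 1 for Wnt4. By limma, Wnt2 differed by -0.68 (95% interval -1.73 to 0.38, adjusted p = 1.00), by -0.17 without sham library 1 and by -1.08 without sham library 3. Wnt4 was under the filter, and with no filter it differed by 0.69 (95% interval -0.21 to 1.58, adjusted p = 1.00 by limma). Fzd4 (q = 0.432) and Rspo2 (q = 0.196) were not called in the authors' deposited table.

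**Figure D5:**
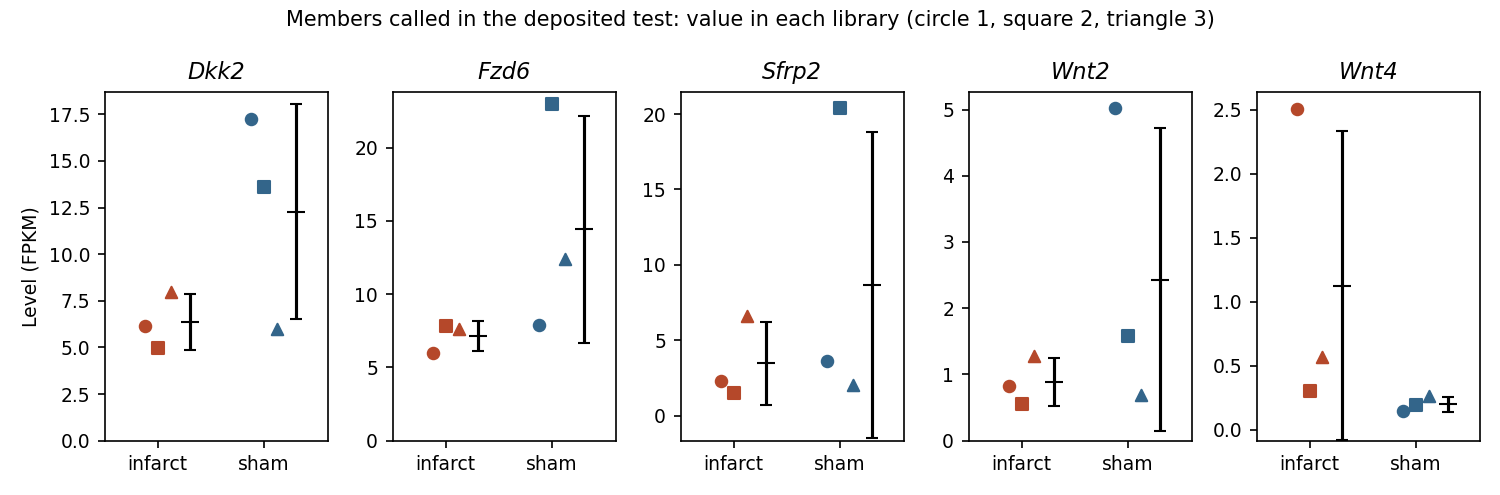
Level (FPKM, linear axes) in each library of the 5 genes called in the authors' deposited table, infarct left of sham, with the mean and SD as bars (n = 3 each). A single library is far from the others of its group for Sfrp2 (20.4 FPKM), Wnt2 (5.02 FPKM) and Wnt4 (2.51 FPKM).

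Promoter sequence is shown for 2 of the called genes, Dkk2 and Sfrp2, and for Fzd1 and Frzb. The windows of Fzd1 and Frzb hold a form of the TCF/LEF motif through which beta-catenin acts. Only this form was searched. Windows are the 250 bases upstream of a RefSeq transcription start on GRCm38.p6, gene strand, 5′ to 3′, in lower case with the motif CTTTGA or its reverse complement TCAAAG in capitals. The Frzb window lies mostly inside the gene as GENCODE annotates it, so only 30 bases round its motif are given. Of the 43 genes 29 matched the RefSeq table by symbol, with 32 windows. The motif stood in 5 of the 32 windows (Dkk1, Frzb, Fzd1, Wnt11 and Wnt5b), 15.6%, and in 12.6% of the 20007 windows of protein-coding genes, a like share.
Fzd1, chr5:4758217-4758466, minus strand: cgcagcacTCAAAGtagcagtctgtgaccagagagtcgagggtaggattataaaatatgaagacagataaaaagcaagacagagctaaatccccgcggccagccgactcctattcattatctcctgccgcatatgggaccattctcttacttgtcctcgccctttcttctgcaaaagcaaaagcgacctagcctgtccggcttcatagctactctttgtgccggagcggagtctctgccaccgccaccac
Frzb, chr2:80447474-80447503, minus strand: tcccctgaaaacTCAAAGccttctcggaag
Dkk2, chr3:132085042-132085291, plus strand: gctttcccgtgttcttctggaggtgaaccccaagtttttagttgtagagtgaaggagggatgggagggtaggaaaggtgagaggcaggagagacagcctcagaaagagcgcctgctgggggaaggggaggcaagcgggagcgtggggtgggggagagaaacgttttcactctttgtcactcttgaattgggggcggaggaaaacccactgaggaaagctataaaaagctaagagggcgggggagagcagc
Sfrp2, chr3:83766071-83766320, plus strand: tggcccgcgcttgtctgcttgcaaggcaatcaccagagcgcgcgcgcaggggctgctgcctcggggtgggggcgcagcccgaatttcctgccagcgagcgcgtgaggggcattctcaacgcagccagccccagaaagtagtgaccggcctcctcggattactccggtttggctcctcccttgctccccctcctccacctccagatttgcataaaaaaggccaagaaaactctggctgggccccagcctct

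The motif occurs once in the Fzd1 and once in the Frzb window, and these exact letters are in neither the Dkk2 nor the Sfrp2 window. Other forms of the motif were not searched in any window. Over all 32 windows the median number of CpG dinucleotides was 22, against 10 in windows of protein-coding genes, with 44 in the Wnt4 window and 7 in the Dkk2 window.

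The rest of the pathway was measured with lists of co-receptors, secretion factors, transducers, targets and polarity genes. No gene of these 5 lists passed limma over all genes in either direction, and the medians lay between -0.04 and 0.05, near that of all tested genes (0.02). Unadjusted p was under 0.05 for 2 genes in them, Jun and Nfatc4, where 3.58% of all tested genes were.

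Co-receptors and surface regulators had 15 of 19 genes tested, with a median of -0.02. The LRP6 co-receptor gene Lrp6 was at 36.3 ± 4.60 FPKM in infarct and 31.8 ± 2.04 in sham libraries (SD, n = 3 each, as below). The R-spondin receptor gene Lgr6 was at 1.29 ± 0.684 in infarct and 0.690 ± 0.411 in sham libraries, and the WNT5A receptor gene Ror2 at 2.44 ± 0.600 in infarct and 1.83 ± 0.783 in sham libraries. The most abundant were genes of glypicans, which are heparan sulfate proteoglycans of the cell surface. Gpc4 was at 108 ± 42.2 FPKM in infarct and 92.2 ± 24.1 in sham libraries, and Gpc6 at 79.5 ± 25.7 in infarct and 89.2 ± 25.5 in sham libraries.

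Of the secretion and modulator list 7 of 14 were tested, with a median of 0.05. Wls, whose product carries Wnt proteins to the surface, was abundant at 171 ± 24.5 FPKM in infarct and 165 ± 25.8 in sham libraries. Porcn, the gene of the acyltransferase that lipid-modifies Wnt, was at 1.59 ± 0.255 in infarct and 1.31 ± 0.837 in sham libraries. The cargo receptor gene Tmed5 was at 41.6 ± 3.98 in infarct and 36.5 ± 0.792 in sham libraries. Igfbp4, an IGF-binding protein gene, stood at 81.9 FPKM in infarct library 1, while the other 5 libraries ranged over 16.7 to 24.6 FPKM.

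Transducers had 27 of 30 genes tested and a median of 0.03. Ctnnb1, the gene of beta-catenin, was at 137 ± 6.11 FPKM in infarct and 153 ± 10.5 in sham libraries, and Csnk1a1, the casein kinase of the destruction complex, at 154 ± 3.22 in infarct and 148 ± 3.27 in sham libraries. The Dishevelled gene Dvl3 was at 16.6 ± 0.307 in infarct and 14.9 ± 0.848 in sham libraries, and the co-repressor gene Tle4 at 1.74 ± 0.279 in infarct and 2.38 ± 0.442 in sham libraries. The co-repressor gene Tle3, named for its lack of overlap, was at 24.3 ± 2.0003 in infarct and 22.2 ± 0.340 in sham libraries. The groups did not overlap for these last 3 genes, of 27 tested, against 7.81% of all tested genes, and none passed the test.

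In the target list 13 of 22 were tested, with a median of 0.05. The AP-1 gene Jun was at 18.5, 19.6 and 21.7 FPKM in infarct libraries, against 25.8, 29.8 and 22.1 FPKM in sham libraries, with no overlap and a difference of -0.35 (unadjusted p = 0.0303 and adjusted p = 1.00 by limma). Jun was the 1 gene of the 13 tested without overlap, against 7.81% of all tested genes. The transcription factor gene Twist1 was at 19.8 ± 2.45 FPKM in infarct and 17.6 ± 0.893 in sham libraries, and the matricellular gene Wisp1 at 25.2 ± 8.37 in infarct and 19.2 ± 3.70 in sham libraries. The most abundant were the cyclin gene Ccnd1, at 447 ± 96.6 in infarct and 440.4 ± 97.6 in sham libraries, and the matricellular gene Wisp2, at 247 ± 102 in infarct and 239.9 ± 112 in sham libraries.

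Feedback targets, whose products restrain or tune canonical signalling, spanned a wide range of levels. Apcdd1 was the highest, at 6.52 ± 2.21 FPKM in infarct and 7.63 ± 3.65 in sham libraries, followed by Nkd2, at 5.54 ± 2.29 in infarct and 3.82 ± 1.75 in sham libraries. Znrf3 was at 2.82 ± 0.236 in infarct and 2.87 ± 0.221 in sham libraries, and Nkd1 at 2.42 ± 1.15 in infarct and 2.31 ± 1.15 in sham libraries. The groups overlapped for each of them. Axin2, under the filter, was at 0.522, 0.278 and 0.607 FPKM in infarct libraries, against 1.55, 0.205 and 0.679 FPKM in sham libraries, and was highest in sham library 1, as were Wnt2 and Dkk2. Lgr5, Rnf43 and Notum averaged 0.0149 to 0.114 FPKM in infarct libraries and 0.0129 to 0.1002 FPKM in sham libraries. The Notum groups did not overlap, at 0, 0.0378 and 0.0336 FPKM in infarct libraries, against 0.103, 0.143 and 0.0555 FPKM in sham libraries. Notum was thus low in every library, and its fragments were not estimated. Such a lack of overlap was found for 7.2% of all untested genes above 0 in at least 1 library. These 8 genes were singled out from the list after its values were seen.

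In the polarity and calcium list 21 of 26 were tested, with a median of -0.04. The calcium-responsive factor gene Nfatc4 was at 4.06, 2.92 and 4.14 FPKM in infarct libraries, against 2.54, 2.59 and 1.05 FPKM in sham libraries, with no overlap and a difference of 0.66 (unadjusted p = 0.0340 and adjusted p = 1.00 by limma). Nfatc4 was the 1 gene of the 21 tested without overlap, against 7.81% of all tested genes. The protein kinase C gene Prkca was at 16.6 ± 0.893 FPKM in infarct and 20.6 ± 3.89 in sham libraries, and the calcineurin gene Ppp3ca at 34.4 ± 0.293 in infarct and 40.6 ± 6.22 in sham libraries. The GTPase genes Rac1 (274 ± 15.2 in infarct, 274 ± 2.91 in sham) and Rhoa (249 ± 28.0 in infarct, 259 ± 11.8 in sham) were the most abundant.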

How the data were processed

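Total RNA of 6 samples was sequenced after removal of ribosomal RNA, as directional libraries read from both ends, per the labels' protocols. Tools named in the submitters' processing notes, without roles, are Cuffdiff, Cufflinks, HISAT2, SAMtools, StringTie and Trimmomatic 0.36, and the build is GRCm38. The gene annotation used is not given in the sources used here. FPKM values were deposited by the authors per library with, per the file headers, group FPKM, p-values, q-values, a test score and SDs (held as a signal in FPKM). The 14 genes with too many fragments (status HIDATA) are listed at 0 and were left out. Sham columns match the sham samples by number, while infarct columns are numbered otherwise than the samples and were assigned to the group. No per-sample column went unused.

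Entries of 1 symbol were summed (110 symbols, none of the 43). limma 3.58.1 (R 4.3.3) was run with an intensity trend on log2(FPKM + 1), a pseudocount of 1, over genes that reached 1 FPKM in 3 or more libraries, two-sided, with Benjamini-Hochberg adjustment and a threshold of 0.05. Such differences understate the change of low genes. Depth was estimated from single-transcript genes of 2 to 12 kb in GENCODE M21, where 83.1% to 88.6% of the low values came within 0.1 of whole fragments. Fragment estimates use the longest transcript and cover counting error only. All 43 identifiers matched that annotation. Loci of Fzd3, Fzd5, Wnt2b, Wnt5b, Wnt6, Wnt7b, Wnt11, Rspo1, Rspo3 and Rspo4 also overlap other genes there, so some fragments are uncertain. Counting was not stated to use strand. The test was tested on simulated data. Python 3.11.15, numpy 2.4.6, pandas 2.3.3 and matplotlib 3.10.9 did the rest.

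The members, lists and tests were chosen with earlier results of these data known. Named were every member past the filter, the 6 highest others, the 3 lowest p-values and the 2 most abundant genes of each pathway list, and the leading markers. Further members, and pathway genes said to be singled out, were named after their values were seen. Alternatives were pseudocounts of 0.1 and 0.01, no filter, a filter of 5 FPKM, quantile and median scaling, no trend, protein-coding genes alone and each library left out.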

Additional observations from a re-analysis of the deposited data

How the results depend on the processing

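No member was called under any of the 14 alternatives, and the lowest adjusted p of a member was 0.606, for Fzd6 without sham library 1. The number of all genes called, 3, was 1 with no filter on low values, 0 with protein-coding genes alone (392 at an unadjusted p under 0.05) and 1 to 14 with single libraries left out, 14 without sham library 1.

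Of 138 member values under the other settings 2 turned sign, both of Wnt5a, to 0.0015 with a pseudocount of 0.1 and 0.0018 with 0.01. With single libraries left out, the differences ran from -0.30 to 0.44 for Dkk3, -0.00052 to 0.29 for Frzb, -0.014 to 0.36 for Fzd1, -0.12 to 0.13 for Fzd7, -0.29 to 0.29 for Fzd8, -0.38 to 0.26 for Sfrp1, -1.32 to 0.092 for Sfrp2, -0.24 to 0.15 for Wnt5a and -0.36 to 0.14 for Wnt9a. The other 9 members kept their sign under every alternative run. The role sums moved by less than their spread with median scaling and, chosen after seeing the data, with each library left out, where the Dickkopf ratio ran from 0.613 to 1.02. The sample titles give replicate numbers but state no pairing of infarct with sham samples. No paired analysis was possible by these numbers, because the infarct columns carry other numbers than the infarct samples. The depth limits what can be said of members under 0.1 FPKM, which rest on a few fragments.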

Other observations

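Sp5, a transcription factor gene known as a direct target of canonical Wnt signals, was under the filter and so untested. It was at 0.0208, 0.0484 and 0.0861 FPKM in infarct libraries, against 0.566, 2.25 and 1.47 FPKM in sham libraries, with no overlap. Its order over the sham libraries was that of the endothelial markers (96.9, 417 and 269 FPKM), whose part was not tested. Lef1, which encodes a factor that binds beta-catenin, went the other way at 0.379, 0.411 and 0.378 FPKM in infarct libraries, against 0.176, 0.148 and 0.241 FPKM in sham libraries, again with no overlap and at low levels. The groups did not overlap for 7.2% of all untested genes above 0 in at least 1 library. Notum, given above, was also lower in infarct libraries with no overlap. Sp5, Lef1 and Notum were picked from the untested genes of the target list. For the others of these that were above 0 in some library, Axin2, Tcf7, Lgr5, Rnf43 and Tnfrsf19, the groups overlapped. The glypican gene Gpc3 was at 0.0455 to 0.0708 FPKM in infarct libraries and at 0.0615, 1.70 and 0.352 FPKM in sham libraries.

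The ratio of Dkk2 to Dkk3 within a library was 0.418, 0.293 and 0.591 in infarct libraries, against 0.687, 0.980 and 0.715 in sham libraries, so it did not overlap although the levels of both genes did. It was 1 of 4 ratios computed, and the other 3 (Frzb to Sfrp1, Fzd6 to Fzd4 and Wnt5a to Wnt9a) overlapped between the groups. These 4 patterns were singled out after their values were seen.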
